A study of Homo sapiens with 29 samples.

Results

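IGFBP1, insulin-like growth factor binding protein 1, was measured by 1 probe set (17045838) among the 53617 probe sets of the array. The probe set was taken by its gene symbol in the array's probe table, and the gene was chosen by its high expression in CCL-treated cells, already known from earlier results of these data. Every difference of CCL-treated and untreated cells in IGFBP1 is therefore given as a description with no test. CCL is the labels' abbreviation for the herb Cratoxylum cochinchinense Lour. The cells were HepG2, a human liver cancer line in long use that keeps many features of hepatocytes, and total RNA was hybridized to 29 Affymetrix arrays.

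The 13 arrays of CCL-treated cells comprised 3 each at 6 h, 12 h and 18 h and 2 each at 24 h and 48 h. The 16 arrays of untreated cells comprised 2 at 0 h, 3 each at 6 h and 12 h, 2 at 18 h and 3 each at 24 h and 48 h. All arrays come from this single cell line, and the labels number them as sets 1 to 3 without saying what a set is. They give no dose and name no vehicle, so effects of CCL and of a solvent or of handling cannot be told apart. In bulk RNA, more cells that express a gene and more of its RNA per cell cannot be told apart either.

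IGFBP1 is a secreted protein made mainly by liver and by the decidual lining of the uterus, and it binds IGF1 and IGF2 in the circulation. In hepatocytes insulin represses its transcription through PI3K and AKT, which keep FOXO factors out of the nucleus, and the gene is a classic readout of this pathway. Fasting, glucocorticoids, cyclic AMP, hypoxia and stress of the endoplasmic reticulum are known to raise it. In the RefSeq annotation of GRCh38.p14 the gene (gene ID 3484) occupies 5173 bases, chr7:45888488-45893660. IGFBP3, the gene of another IGF binding protein, lies 18585 bases away on one side, and CCDC201 lies 3316 bases away on the other.

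Levels are log2 values after RMA, the array summary method used by the authors, and 1 unit is a 2-fold difference. The median over all probe sets ran from 2.29 to 3.39 between arrays, and 6 arrays had a median that stood apart from the others of their time. These were the CCL arrays of set 1 at 6 h, set 3 at 18 h (the highest median), set 1 at 24 h and set 1 at 48 h, and the untreated arrays of set 1 at 18 h (the lowest median) and set 1 at 24 h. Values after quantile normalization of all arrays, and without these 6 arrays, are given where they matter. All arrays of 12 h, in both arms, had medians of 2.51 to 2.54, below every other array but the untreated array of set 1 at 18 h. The hepatocyte markers ALB and AFP had mean levels of 11.93 and 10.74, and the mean of the 11 hepatocyte markers measured ran from 10.14 to 10.55 on CCL arrays and from 10.12 to 10.82 on untreated arrays. By the mean over the 5 times in limma, 3 of these 11 fell in CCL-treated cells, TTR by 0.43, APOA1 by 0.39 and FGA by 0.48 on the log2 scale, and APOA2 rose by 0.29 (adjusted p of 0.00825 to 0.04). The part of such shifts in the IGFBP1 values was not tested. Of 14 leukocyte, endothelial and fibroblast markers, 6 had a named probe set. LYZ had a mean level of 10.63 and a CCL minus untreated difference of 0.01, while the highest array values of CD14, PECAM1, VWF, KDR and DCN were 4.72, 3.57, 3.22, 2.83 and 2.28.

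IGFBP1 was higher on every CCL array than on every untreated array of the study. Its level ran from 9.55 to 11.11 on the 13 CCL arrays, with a median of 10.3, and from 5.75 to 8.61 on the 16 untreated arrays, with a median of 7.46. A gap of 0.94 lay between the lowest CCL array, set 3 at 6 h, and the highest untreated arrays. Of the 6529 named genes tested, those above log2 5 on at least 2 arrays, 61 (0.934%) had every CCL array above every untreated array. After quantile normalization the CCL arrays ran from 9.54 to 11.05 and the untreated arrays from 6.26 to 8.57, still without overlap.

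At 6 h IGFBP1 stood at 10.37, 10.53 and 9.55 on CCL arrays of sets 1, 2 and 3, and at 8.61, 7.91 and 8.37 on untreated arrays of the same sets. Set 3 was the lowest CCL array and yet lay above all 3 untreated arrays. The means were 10.15 ± 0.52 in CCL-treated and 8.29 ± 0.36 in untreated cells (SD, n = 3 each). The difference was 1.86 ± 0.48 (log2, SE from the model), or 3.62-fold.

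At 12 h the levels were 10.28, 10.21 and 10.54 on CCL arrays and 7.26, 7.13 and 7.33 on untreated arrays. The arrays of each arm lay close together at this time. The means were 10.34 ± 0.17 in CCL-treated and 7.24 ± 0.10 in untreated cells (SD, n = 3 each), a difference of 3.10 ± 0.48 (SE), or 8.59-fold. The quantile-normalized difference was also 3.10.

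At 18 h the levels were 10.19, 10.24 and 11.03 on CCL arrays, and 5.75 (set 1) and 7.36 (set 3) on untreated arrays. Both the highest CCL array and the lowest untreated array are among those with array medians that stood apart. The means were 10.48 ± 0.47 (SD, n = 3) in CCL-treated and 6.55 ± 1.14 (SD, n = 2) in untreated cells, a difference of 3.93 ± 0.53 (SE), or 15.3-fold. After quantile normalization it was 3.64 ± 0.48. It was 3.13 without the untreated array of set 1 and 4.74 without that of set 3.

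At 24 h the levels were 10.91 (set 1) and 10.30 (set 2) on CCL arrays, against 6.11, 6.38 and 8.53 on untreated arrays. The untreated array of set 3 lay more than 2 units above those of sets 1 and 2. The means were 10.61 ± 0.43 (SD, n = 2) in CCL-treated and 7.01 ± 1.33 (SD, n = 3) in untreated cells, and the difference was 3.60 ± 0.53 (SE), or 12.1-fold. Without the untreated array of set 3 it was 4.36, and without that of set 1 it was 3.15.

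At 48 h the levels were 11.11 (set 1) and 9.99 (set 2) on CCL arrays, against 7.52, 7.63 and 8.29 on untreated arrays. The means were 10.55 ± 0.79 (SD, n = 2) in CCL-treated and 7.81 ± 0.42 (SD, n = 3) in untreated cells. The 2 CCL arrays differed by more than the 3 untreated arrays did among themselves. The difference between the arms was 2.74 ± 0.53 (SE), or 6.66-fold, and it was 2.17 without the CCL array of set 1 and 3.30 without that of set 2.

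**Figure D1:**
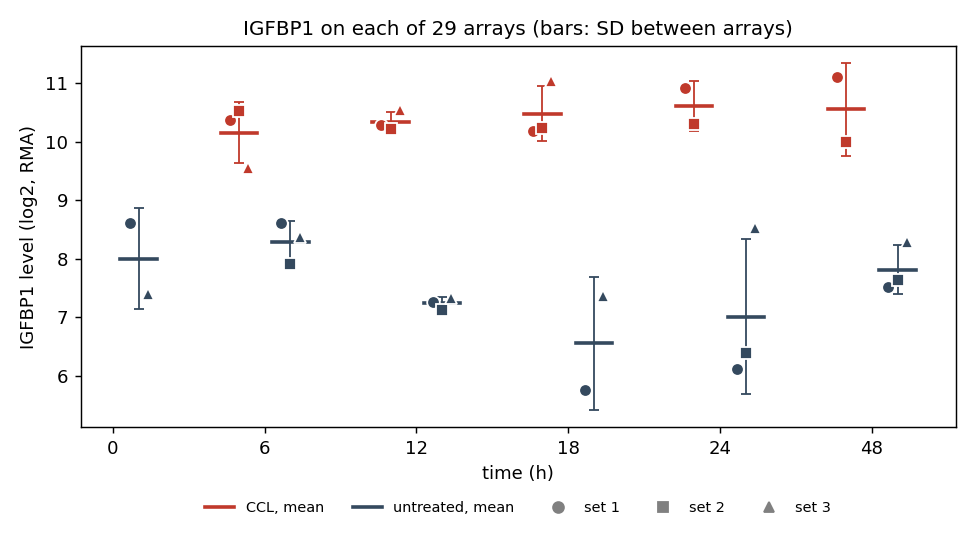
IGFBP1 level (log2 after RMA, y axis) by time (h, x axis) on 13 CCL arrays and 16 untreated arrays. Each symbol is 1 array with its shape giving the set, horizontal lines are group means and error bars are the SD between arrays of a group. All CCL arrays, at 9.55 or above, lie over all untreated arrays, at 8.61 or below.

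Averaged over the 5 times, IGFBP1 was higher in CCL-treated than in untreated cells by 3.05 ± 0.23 (log2, SE), or 8.26-fold. The median of all genes tested was 0.01 for the same quantity. At single times that median was -0.06, -0.06, 0.41, 0.04 and -0.26 at 6, 12, 18, 24 and 48 h. The shift of 0.41 at 18 h and of -0.26 at 48 h thus stands beside IGFBP1 differences of 3.93 and 2.74. Without the 6 arrays with medians that stood apart, the 5 differences were 1.75, 3.10, 2.86, 2.85 and 2.17 from 6 to 48 h, and their mean was 2.55 ± 0.24 (SE).

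Among the 6529 genes, the difference of IGFBP1 ranked 8 at 6 h, 2 at 12 h, 1 at 18 h, 3 at 24 h and 4 at 48 h. For the mean over the times it ranked 2, below IL11, a cytokine, with a difference of 3.25. At 6 h the genes above it were IL11 at 2.65, ANKRD1 at 2.41, and DUSP5, LIF, EGR1, CCL20 and JUNB. EGR1 and JUNB are immediate early transcription factors, and DUSP5 is a phosphatase that acts on ERK. IL11 was the 1 gene above it at 12 h, IL11 and the long noncoding RNA UCA1 were above it at 24 h, and DUSP5, UCA1 and VNN1 at 48 h. After quantile normalization IGFBP1 ranked 9, 1, 1, 3 and 6 from 6 to 48 h and 3 for the mean. These ranks describe a gene that was selected on the same differences.

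Arrays with the same set number and time in both arms gave 12 pairs, and IGFBP1 was higher in the CCL array of all 12. The pair differences were 1.76, 2.62 and 1.18 at 6 h and 3.02, 3.07 and 3.21 at 12 h. They were 4.44 and 3.67 at 18 h, 4.80 and 3.92 at 24 h, and 3.59 and 2.36 at 48 h. The 3 smallest were thus 2 of the pairs at 6 h and 1 at 48 h. The labels do not say whether a shared number means a shared culture. Residuals of same-numbered arrays correlated above 0.1 in 9 of the 12 pairs, which leaves pairing undecided. Sets are also unbalanced between the arms, as CCL arrays lack set 3 at 24 h and 48 h and untreated arrays lack set 2 at 18 h.

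**Figure D2:**
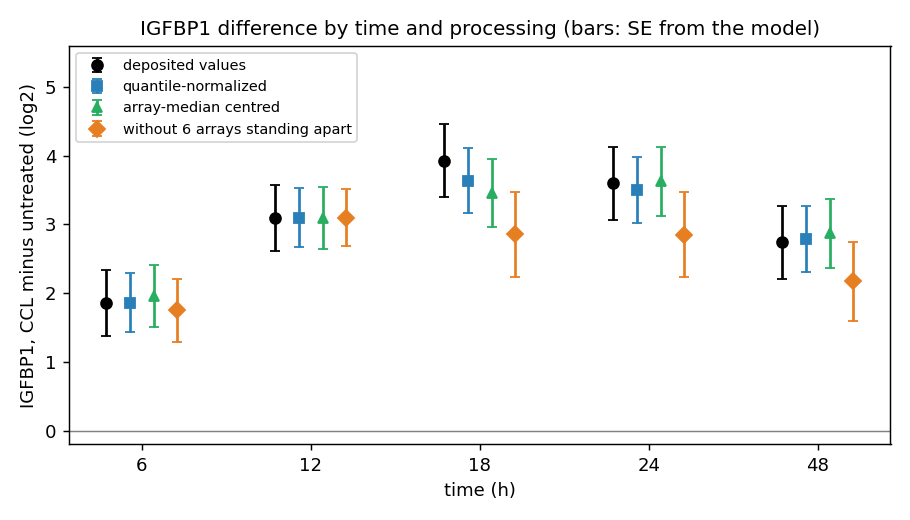
CCL minus untreated difference of IGFBP1 (log2, y axis) by time (h, x axis), from the deposited values, after quantile normalization, after centring arrays on their medians, and without the 6 arrays that stand apart. Error bars are SE from the model. The largest change with processing is at 18 h, with 2.86 without the 6 arrays and 3.93 on the deposited values.

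The level of IGFBP1 in CCL-treated cells varied little over time next to its level in untreated cells. The 5 CCL group means spanned 0.46, and the 6 untreated group means spanned 1.74. After quantile normalization the spans were 0.52 and 1.45. Relative to 6 h, the CCL mean was higher by 0.19 ± 0.48 at 12 h, 0.34 ± 0.48 at 18 h, 0.46 ± 0.53 at 24 h and 0.40 ± 0.53 at 48 h (SE), each within its error. The untreated mean differed from 6 h by -1.05 ± 0.48 at 12 h, -1.74 ± 0.53 at 18 h, -1.29 ± 0.48 at 24 h and -0.48 ± 0.48 at 48 h (SE). The difference between the arms was thus larger than at 6 h by 1.25 ± 0.67 at 12 h, 2.08 ± 0.72 at 18 h, 1.75 ± 0.72 at 24 h and 0.88 ± 0.72 at 48 h (SE). On the deposited values the lower untreated level was the larger term in each of these 4 amounts. At 48 h both terms, 0.40 ± 0.53 and -0.48 ± 0.48, were no larger than their errors and cannot be ranked. At 12 h the sizes of the 2 terms depend on scaling, since all arrays of that time had low medians. The 2 terms were close in size after centring on array medians. After centring on array medians, CCL arrays stood at 10.68, 10.46 and 9.51 at 6 h and at 10.72, 10.66 and 10.96 at 12 h. Untreated arrays then stood at 8.57, 7.86 and 8.37 at 6 h and at 7.69, 7.59 and 7.79 at 12 h. Without the 6 arrays that stood apart, the differences between the arms were 1.75, 3.10, 2.86, 2.85 and 2.17 from 6 to 48 h. Their growth from 6 h was thus smaller at 18, 24 and 48 h than with all arrays. The untreated means also rest on wide spreads, 5.75 and 7.36 at 18 h and 6.11, 6.38 and 8.53 at 24 h.

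In order of level, the CCL groups ran 24 h, 48 h, 18 h, 12 h and 6 h from high to low. Neighbours differed by 0.06 to 0.19, with SE of 0.48 to 0.58, and the arrays of each neighbouring pair overlapped. The extremes, 24 h and 6 h, differed by 0.46 ± 0.53 and overlapped too. No order of the CCL groups could thus be told from the spread between arrays. Against the untreated cells of 0 h, with levels of 8.61 and 7.40 and a mean of 8.0 ± 0.86 (SD, n = 2), the CCL groups were higher by 2.14 ± 0.53 at 6 h, 2.34 ± 0.53 at 12 h, 2.48 ± 0.53 at 18 h, 2.60 ± 0.58 at 24 h and 2.54 ± 0.58 at 48 h (SE). These 5 differences share the 0 h arrays.

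The untreated groups ran 6 h, 0 h, 48 h, 12 h, 24 h and 18 h from high to low. Neighbours differed by 0.29 ± 0.53, 0.19 ± 0.53, 0.57 ± 0.48, 0.23 ± 0.48 and 0.45 ± 0.53 (SE), and only the arrays of 48 h and 12 h did not overlap. The extremes, 6 h and 18 h, differed by 1.74 ± 0.53 without overlap. Relative to 0 h, untreated cells differed by 0.29 at 6 h, -0.76 at 12 h, -1.45 at 18 h, -1.0 at 24 h and -0.19 at 48 h. An F-test in limma of equal levels in the 6 untreated groups gave F = 3.18 and an unadjusted p = 0.0228. Its adjusted p over all genes was 0.372, so a change over time was not called. The same test called 15 of 6529 genes (0.23%), with 721 at an unadjusted p under 0.05. Without the untreated array of set 3 at 18 h the adjusted p was 0.0416, and without that of set 3 at 24 h it was 0.0451. The untreated arrays from 6 h on also entered the comparison the gene was chosen by.

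IGFBP1 was among the more variable genes between arrays of a group. Its SD was 0.67 (log2, 18 residual degrees of freedom), against 0.32 for the median gene, and 98.3% of genes had a smaller one. The widest groups were untreated cells at 24 h and 18 h, and the narrowest was untreated cells at 12 h.

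Around IGFBP1, 8 lists of genes were examined by role: IGF ligands and binding proteins, proteases that cleave the binding proteins, receptors and adaptors, the PI3K and AKT pathway, insulin-responsive and FOXO target genes, transcription factors linked with the IGFBP1 promoter or with liver and stress programmes, hypoxia targets, and ATF4 targets. They hold 178 genes, of which 118 had a named probe set and 86 were tested. By the mean over the 5 times in limma, at an adjusted p under 0.05 over all genes, 29 of the 86 (33.7%) rose in CCL-treated cells and 9 (10.5%) fell. Of all 6529 genes, 885 (13.6%) rose and 721 (11%) fell. These shares, also given beside single lists below, are those of the deposited values with all arrays. Counts over all genes moved between alternatives too, as given in the closing section. List counts under an alternative can therefore not be set against these shares. The median difference was 0.19 in the lists, against 0.01 over all genes. After quantile normalization 33 of the 86 rose and 14 fell, and without the 6 arrays 23 rose and 12 fell.

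Among ligands and binding proteins, 8 of 12 genes had a named probe set and 3 passed the filter. Of these, 2 rose, 0 fell and 1 was not called, with a median of 0.37. Over all genes, 13.6% rose and 11% fell. IGFBP4, which binds IGFs and is cleaved by PAPP-A, ranged from 7.03 to 7.69 on CCL arrays (median 7.32) and from 6.29 to 7.33 on untreated arrays (median 6.83). The arms overlapped, and the difference was 0.49 ± 0.11 (log2, SE; adjusted p = 0.00207 in limma). IGFBP6, a binding protein with a preference for IGF2, lay low, with medians of 4.38 on CCL and 4.19 on untreated arrays. Its untreated arrays reached at most 4.71, so it passed the filter above log2 5 only through CCL arrays. It differed by 0.37 ± 0.13 (adjusted p = 0.0389 in limma), and by 0.19 without the 6 arrays. In the fit without the filter it was not called (adjusted p = 0.0628). With each of the 29 arrays left out in turn, its call was lost 16 times, with an adjusted p of up to 0.128. IGFBP7, a distant relative with low affinity for IGFs, differed by 0.22 ± 0.20 (adjusted p = 0.462), and by 0.48 (adjusted p = 0.0194) without the untreated array of set 3 at 18 h. The differences of these members were thus all far below the 3.05 of IGFBP1. IGFBP1 was chosen for its high expression in CCL-treated cells, so most genes set beside it lie below it.

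IGFBP3, the main carrier of IGFs in blood and the neighbour of IGFBP1 on chromosome 7, lay below the filter on level. Its level ran from 3.11 to 4.89 on CCL arrays (median 3.73) and from 2.21 to 3.56 on untreated arrays (median 3.17). The arms overlapped at low levels, close to the bulk of all probe sets. In a limma fit without the filter, over 14884 genes, its mean difference was 0.88 ± 0.15 (SE; adjusted p = 0.00026). By time it was 0.52, 0.56, 1.51, 0.95 and 0.85 from 6 to 48 h, and of these only 18 h was called (adjusted p = 0.012). Without the untreated array of set 1 the IGFBP3 difference at 18 h was 0.88. The other 4 adjusted p-values ran from 0.226 to 0.973. IGF1, the growth factor itself, was at most 2.62 on any CCL array and 2.27 on any untreated array. IGFBP5 was at most 4.0 on CCL and 3.63 on untreated arrays. IGF2 and IGFBP2 were not analysed here.

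Of 12 proteases and their inhibitors 2 were tested. STC2, stanniocalcin 2, a secreted inhibitor of PAPP-A that is also a target of ATF4, ranged from 6.72 to 8.04 on CCL arrays (median 7.05) and from 4.90 to 6.91 on untreated arrays (median 6.28). It rose by 1.21 ± 0.13 (SE; adjusted p = 1.83e-07 in limma), with differences of 0.31, 1.22, 2.19, 1.59 and 0.73 from 6 to 48 h. Without the untreated array of set 1, the STC2 difference at 18 h was 1.67. The protease ADAM9 differed by 0.23 ± 0.10 and was not called (adjusted p = 0.0925).

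Among receptors and adaptors, 9 of 18 genes were tested, and 3 rose, 1 fell and 5 were not called, with a median of 0.20. Over all genes, 13.6% rose and 11% fell. INSR, the insulin receptor, differed by 0.33 ± 0.11 (SE; adjusted p = 0.0353 in limma), and without the 6 arrays by 0.23 (adjusted p = 0.123). Its call was lost on leaving out any of 12 single arrays, with an adjusted p of up to 0.0946. IGF1R, the receptor of IGF1, differed by -0.08 ± 0.13 (adjusted p = 0.719), and IGF2R, which takes up IGF2 for degradation, by 0.20 ± 0.13 (adjusted p = 0.304). IRS1, the docking protein of the insulin receptor, differed by 0.37 ± 0.14 and was not called (adjusted p = 0.0562), though it was after quantile normalization (adjusted p = 0.0173), after centring on array medians (adjusted p = 0.0355), with set as a block (adjusted p = 0.00455), without any of 5 single arrays (adjusted p down to 0.00709) and without the 6 arrays (0.41, adjusted p = 0.00216). SHC1, an adaptor towards RAS, rose by 0.51 ± 0.13 (adjusted p = 0.00457), and without the 6 arrays the difference was 0.31 (adjusted p = 0.0828). ENPP1, an ectoenzyme known to inhibit the insulin receptor, rose by 0.36 ± 0.09 (adjusted p = 0.00527). SH2B1, an adaptor that enhances insulin signalling, fell by 0.67 on the log2 scale (adjusted p = 0.00153). IRS2, the main docking protein of liver beside IRS1, lay below the filter, at most 4.03 on CCL and 2.99 on untreated arrays.

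Of 16 tested genes of the PI3K, AKT, mTOR and FOXO pathway 2 rose, 2 fell and 12 were not called, with a median of 0.13. The shares over all genes were 13.6% higher and 11% lower. SGK2, a kinase related to AKT, rose by 0.66 ± 0.14 (SE; adjusted p = 0.00092 in limma), with -0.26, 0.81, 1.55, 1.40 and -0.17 from 6 to 48 h. The sign at 48 h rests on 1 array, since the difference of SGK2 was 0.62 without the CCL array of set 1. SGK1, its relative and a kinase that can phosphorylate FOXO3, fell by 0.85 (adjusted p = 0.000517). Its CCL arrays reached at most 4.72, so it passed the filter only through untreated arrays. EIF4EBP1, a repressor of translation held in check by mTOR, rose by 0.50 ± 0.14 (adjusted p = 0.00875), and without the 6 arrays the difference was 0.14 (adjusted p = 0.395). PHLPP1, a phosphatase that acts on AKT, fell by 0.36 (adjusted p = 0.0228), a call lost on leaving out any of 3 arrays. The difference was -0.29 without the untreated array of set 3 at 18 h (adjusted p = 0.0614), -0.29 without the CCL array of set 1 at 24 h (adjusted p = 0.0861) and -0.27 without the CCL array of set 1 at 48 h (adjusted p = 0.0874). FOXO1, the factor that activates IGFBP1 transcription when insulin is low, differed by 0.26 ± 0.12 and was not called (adjusted p = 0.119), though it was without the CCL array of set 2 at 48 h (0.36, adjusted p = 0.0248) or the untreated array of set 3 at 18 h (0.34, adjusted p = 0.0389), and with set as a block (0.31, adjusted p = 0.0293). FOXO3 lay below the filter, at most 4.84 on CCL and 4.77 on untreated arrays. These are levels of RNA, and phosphorylation of the proteins was not measured.

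Among insulin-responsive and FOXO target genes of liver, 14 of 26 were tested, and 4 rose, 2 fell and 8 were not called, with a median of 0.22. Over all genes, 13.6% rose and 11% fell. TRIB1, a pseudokinase that regulates lipid metabolism, rose by 1.08 ± 0.14 (SE; adjusted p = 1.83e-06 in limma), and ERRFI1, an inhibitor of the EGF receptor, by 0.84 ± 0.15 (adjusted p = 0.00024). ANGPTL8, a secreted regulator of lipoprotein lipase that insulin induces and so runs against IGFBP1 in its known regulation, rose by 0.42 ± 0.11 (adjusted p = 0.0084). TXNIP, an inhibitor of glucose uptake and a FOXO target, ranged from 2.84 to 6.74 on CCL arrays (median 5.72) and from 5.75 to 7.90 on untreated arrays (median 6.81). It fell by 1.54 (adjusted p = 0.000846), with a difference of -2.70 at 48 h that was -1.58 without the CCL array of set 1. At 24 h it was -1.0, and 0.37 without the CCL array of set 1. SESN1, a FOXO and p53 target that restrains mTOR, fell by 0.79 (adjusted p = 0.00316). Members of this list were thus called in both directions, and after quantile normalization 4 rose and 4 fell. Without the 6 arrays 3 rose and 3 fell, with a median of 0.02. PCK1, the gluconeogenic enzyme repressed by insulin like IGFBP1, lay below the filter. Its level ran from 2.95 to 4.56 on CCL and from 2.47 to 3.65 on untreated arrays, with a difference of 0.47 ± 0.10 in the fit without the filter (adjusted p = 0.00293).

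Against 13.6% of all genes higher and 11% lower, 3 of 14 tested transcription factors rose, 4 fell and 7 were not called. Their median was 0.02. Those that fell include the liver factors FOXA1, FOXA2 and ONECUT1. FOXA1 ranged from 4.67 to 6.06 on CCL arrays (median 5.90) and from 6.06 to 6.91 on untreated arrays (median 6.60). It fell by 0.80 (adjusted p = 1.83e-05 in limma), ONECUT1 by 1.12 (adjusted p = 7.33e-05) and FOXA2 by 0.44 (adjusted p = 0.00968). KLF6, a zinc-finger factor, rose by 1.06 ± 0.14 (SE; adjusted p = 3.38e-06), and EPAS1, the hypoxia-inducible factor HIF2A, by 0.66 ± 0.15 (adjusted p = 0.00158). ATF4, the effector of the integrated stress response, rose by 0.44 ± 0.13 (adjusted p = 0.0179), but the difference was 0.14 (adjusted p = 0.269) without the 6 arrays. Without the untreated array of set 1 at 18 h alone it was 0.29 (adjusted p = 0.0597), and without the CCL array of set 1 at 24 h it was 0.37 (adjusted p = 0.0642).

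**Figure D3:**
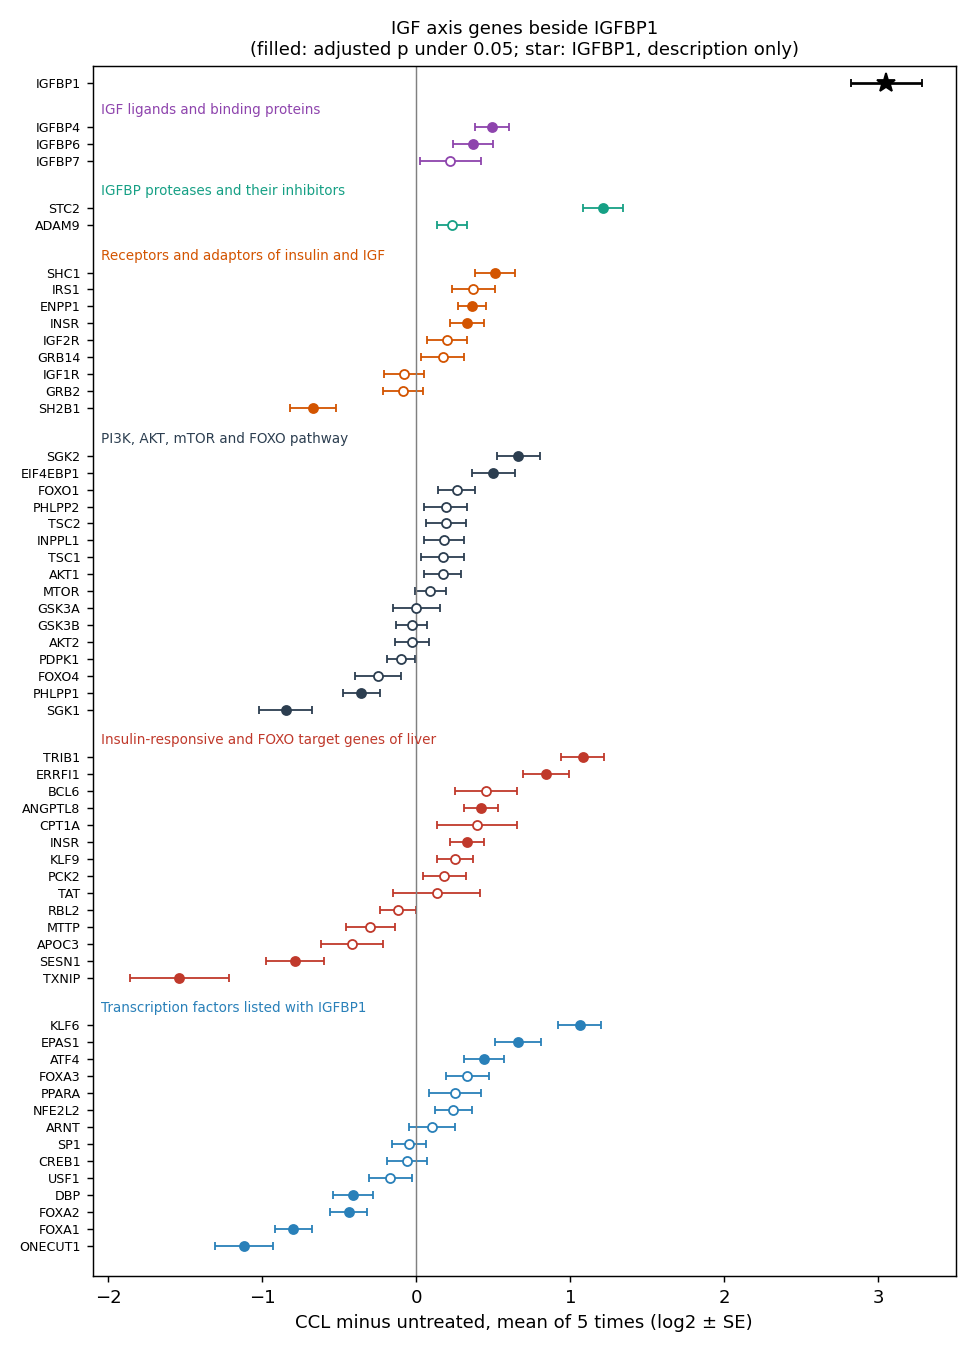
CCL minus untreated difference, mean of 5 times (log2, x axis), for IGFBP1 (star, description only) and the tested genes of 6 lists by role (circles). Error bars are SE from limma, and filled circles have an adjusted p under 0.05. IGFBP1, chosen for its high expression in CCL-treated cells, lies at 3.05, to the right of all other points. Among those, STC2 at 1.21 is the highest and TXNIP at -1.54 the lowest.

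Genes of the hypoxia and stress responses, both known to raise IGFBP1 in liver cells, were counted in the same way. Beside them stand the 13.6% of all genes that rose and the 11% that fell. Of 13 tested hypoxia targets 5 rose, 0 fell and 8 were not called, with a median of 0.11, and after quantile normalization 6 rose and 2 fell. Without the 6 arrays 5 rose and 1 fell, with a median of 0.04. NDRG1, a target of hypoxia and of other stresses, ranged from 4.97 to 5.84 on CCL arrays (median 5.27) and from 3.05 to 4.73 on untreated arrays (median 4.09). Its arms did not overlap, and it rose by 1.24 ± 0.14 (SE; adjusted p = 1.9e-07 in limma). NDRG1 passed the filter only through CCL arrays, since all its untreated arrays lay below log2 5. VEGFA, the angiogenic growth factor, rose by 0.65 ± 0.17 (adjusted p = 0.00645), and HK2, the hexokinase, by 0.53 ± 0.14 (adjusted p = 0.00724).

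Of 18 tested ATF4 and integrated stress response targets 12 rose, 0 fell and 6 were not called, with a median of 0.57, and after quantile normalization 14 rose and 1 fell. Without the 6 arrays 10 rose and 1 fell, with a median of 0.36. GDF15, a stress-induced secreted hormone, ranged from 10.89 to 12.03 on CCL arrays (median 11.16) and from 8.38 to 9.69 on untreated arrays (median 9.22). Its arms did not overlap, and it rose by 2.18 ± 0.13 (SE; adjusted p = 1.5e-11 in limma). ATF3, a transcription factor induced by ATF4, rose by 0.85 ± 0.23 (adjusted p = 0.0095). Its untreated arrays reached at most 4.63, so it passed the filter only through CCL arrays. STC2 and VEGFA, described above, are on this list as well.

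By single time, the number of list genes called depended on the scaling of the arrays. At 6 h 1 of the 86 (1.16%) was called, GDF15, against 0.306% of all genes, and it was not called without the untreated array of set 2 or the CCL array of set 3 of that time. At 12 h 3 (3.49%) were called, all higher, GDF15, NDRG1 and STC2, against 1.24% of all genes. At 18 h 25 (29.1%) were called, all higher, against 12.5% of all genes, and this was the time at which all genes shifted by 0.41. Leaving out either untreated array of 18 h leaves 1 in that group. The number of list genes called then fell without set 1, the array with the lowest median, and rose without set 3. The number over all genes moved the same way, so these shifts are not particular to the lists. Without the CCL array of set 3, 9 list genes were called at 18 h. After quantile normalization 11 were higher and 3 lower at 18 h, and after centring on array medians 8 were higher and 1 lower. The number of all genes called at 18 h also moved widely between alternatives, so these counts show no trait of the lists by themselves.

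At 24 h 5 list genes were higher and 2 lower (8.14%), against 3.02% of all genes called. The lower ones were FOXA1 and ONECUT1. On the CCL arrays of sets 1 and 2 at 24 h, FOXA1 stood at 4.67 and 5.90 and ONECUT1 at 2.88 and 5.21. The lowest untreated arrays of that time stood at 6.40 and 5.71. Both genes were thus far lower on set 1, whose median stood apart, and the sizes of their falls rest largely on it. Without the CCL array of set 1, which leaves 1 CCL array at this time, fewer list genes were called, and fewer of all genes too. At 48 h 2 list genes were higher and 5 lower (8.14%), against 6.56% of all genes. After quantile normalization 12 were higher and 6 lower at 48 h, and after centring on array medians 6 and 6, so the balance of directions depended on the scaling. On deposited values the higher ones were ANGPTL8 and GDF15 and the lower ones LOX, ONECUT1, SGK1, TXNIP and USF1, of which LOX and USF1 are named after their values were seen. Leaving out either CCL array of 48 h leaves 1 in that group. The number of list genes called then fell without set 1 and rose without set 2, as did the number over all genes. Without the 6 arrays that stood apart, 5 list genes were called at 6 h and 17 at 12 h, 7 of the 17 being lower. Over the alternatives other than single arrays, 18 to 198 of all genes were called at 6 h and 58 to 774 at 12 h. The list counts under alternatives, at these times and at 48 h, thus show no trait of the lists by themselves. An F-test in limma of equal CCL effects at the 5 times called 0 of the 86 list genes, with 18 at an unadjusted p under 0.05, and 1 of all 6529 genes (0.0153%). Differences in size between times, for list genes, were therefore not shown.

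The genes whose 11 group means followed those of IGFBP1 most closely were identified by Pearson's r, as a description. All points share the arm and the time, so a gene that separates the arms strongly has a high r for that alone. GDF15 was the most like, with r = 0.990 over the 11 group means and 0.967 over the 29 arrays. It was followed by PXDC1 at 0.990, CSGALNACT2, an enzyme of chondroitin sulphate synthesis, at 0.986, and IER3, an early response gene represented by the highest of its 11 probe sets, at 0.982. SH3RF1, a ubiquitin ligase, had 0.980, BAIAP2L1, an actin regulator, 0.978, AQP3, a water and glycerol channel, 0.977, and AXL, a receptor tyrosine kinase, 0.976. After quantile normalization r was 0.951 to 0.989 for these 8 genes, and BAIAP2L1 then ranked 35 among the most alike.

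Like IGFBP1, each of the 8 genes had its lowest group mean in untreated cells at 12 h, 18 h or 24 h. The genes were chosen by r over these same group means, so a shared low point follows from the choice. The untreated arrays of 12 h, and those of set 1 at 18 h and 24 h, also had low array medians. The part of these medians in the low group means was not tested. GDF15 had group means of 11.13, 11.23, 11.22, 11.37 and 11.47 in CCL-treated cells from 6 to 48 h. In untreated cells they were 9.45 at 0 h and then 9.61, 8.84, 8.90, 8.91 and 9.27. AXL had 6.45, 7.01, 7.35, 7.12 and 7.43 in CCL-treated cells, and 5.28, 5.45, 4.87, 4.58, 4.99 and 4.90 in untreated cells from 0 h on, and so spread more over the CCL times than GDF15 did. The mean differences of the 8 genes ran from 0.96 for BAIAP2L1 to 2.18 for GDF15. All lay below the 3.05 of IGFBP1, which was chosen for its high expression in CCL-treated cells. The opposite course was closest in SMLR1 with r = -0.915, DHRS4-AS1 with -0.914 and PITPNA-AS1 with -0.897. Their mean differences were -1.10, -0.60 and -0.55. DHRS4-AS1 and PITPNA-AS1 are named as antisense genes, and whether their probes also detect the partner genes was not tested.

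**Figure D4:**
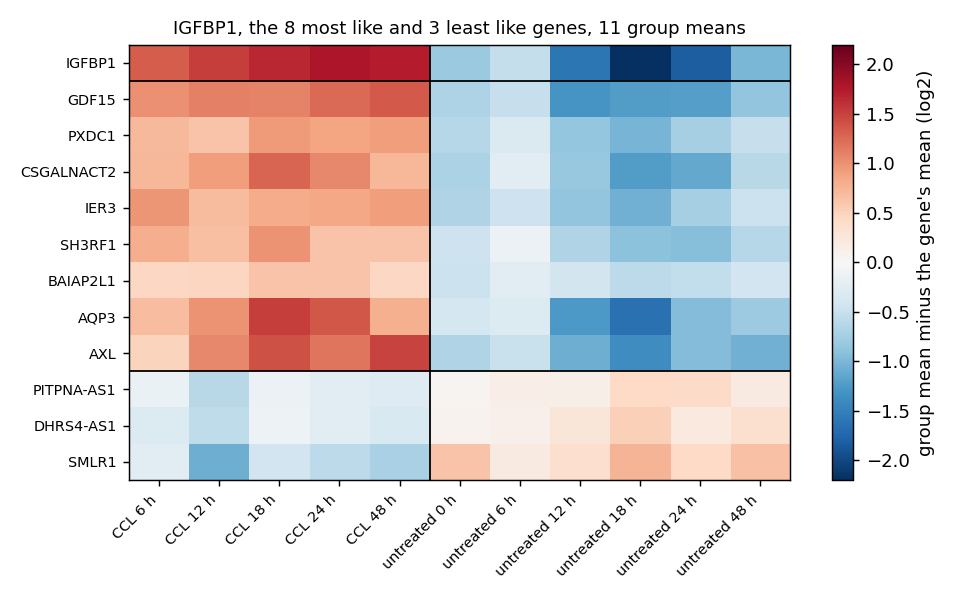
Group means of IGFBP1, the 8 most alike genes and the 3 least alike (rows) in the 5 CCL groups and 6 untreated groups (columns), as the difference from each gene's mean over the groups (log2, colour). The 8 genes under IGFBP1 are high in the CCL columns and low in the untreated columns, lowest at 12 h, 18 h or 24 h, and the last 3 rows run the other way.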

How the data were processed

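Total RNA of HepG2 cells was labelled with biotin and hybridized to HuGene 2.0 ST arrays. The authors deposited log2 values for each probe set on 29 arrays, and the submitters' processing notes name RMA and Affymetrix Expression Console 1.1. RMA brings the probe intensities of arrays normalized together to 1 distribution, yet the medians of the probe set values differ here. Whether all arrays were normalized together is not stated and was not tested. No intensities or detection calls were used here, and the number of arrays limits the precision.

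The probe table gives 1 symbol to each of 16098 probe sets, and their gene IDs were all found in RefSeq (GRCh38.p14). No probe set has several symbols, and the 37519 with none were not analysed here. Where several probe sets measured a gene (779 of 14884), that with the highest mean was used. Tests were run on the 6529 genes that exceeded log2 5 on 2 or more arrays. These could be arrays of 1 arm alone, as for NDRG1, ATF3, IGFBP6 and SGK1, and the filter then favours genes high in that arm.

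In R 4.3.3, limma 3.58.1 (lmFit, then eBayes) was used to fit 1 mean for each of 11 groups over the 29 arrays, and the code was tested on simulated data. Tests are two-sided with Benjamini-Hochberg adjustment over all genes of a comparison, and a gene is called where its adjusted p is under 0.05. Since the labels name no separate cultures, the spread behind each p-value is that between arrays and may be technical. Residuals of same-numbered arrays of a time correlated above 0.1 in 9 of 12 pairs (-0.0657 to 0.444). This neither establishes nor excludes pairing, and set is a block only in an alternative.

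Genes of the lists are named where they belong to the core of the IGF axis, or are among the 3 highest or 3 lowest called members of a list, and the 8 most and 3 least alike genes by Pearson's r are named. IGFBP1, the lists and the 6 arrays left out in an alternative were chosen with earlier results of these data known. The genes ranked above IGFBP1 and ADAM9 are named outside that rule. Alternatives were quantile normalization, centring on array medians, a set block, other filters, the mean of all probe sets of a gene, a fit on the compared arrays alone, and leaving out arrays.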

Additional observations from a re-analysis of the deposited data

How the results depend on the processing

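The difference of IGFBP1 was positive at each time and for the mean under all alternatives run. Without the 6 arrays it was 2.86 at 18 h and 2.85 at 24 h, against 3.93 and 3.60 with all arrays. Leaving out 1 array at a time gave 1.66 to 2.15 at 6 h, 3.01 to 3.17 at 12 h, 3.13 to 4.74 at 18 h, 3.15 to 4.36 at 24 h, 2.17 to 3.30 at 48 h and 2.88 to 3.21 for the mean. With set as a replicate block the values were 4.07 at 18 h and 3.13 for the mean. That block, for which pairing was not established, gave 108 called genes at 6 h against 20 without it, 257 against 81 at 12 h, 1571 against 815 at 18 h, 525 against 197 at 24 h, and 903 against 428 at 48 h. The adjusted p of the F-test in untreated cells for IGFBP1 ran from 0.0416 to 0.645 with 1 array left out and from 0.112 to 0.655 under the other alternatives. The list genes called lower numbered 14 after quantile normalization, against 9, and those called higher 23 to 39, against 29.

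Counts over all genes moved more. Over the alternatives other than single arrays, the mean over the times called 634 to 1205 genes higher and 546 to 1237 lower. Single times called 18 to 198 at 6 h, 58 to 774 at 12 h, 58 to 1571 at 18 h, 45 to 525 at 24 h, and 0 (on the compared arrays alone) to 903 at 48 h. The F-test called 0 to 724 genes in untreated cells, and 0 to 3 for the CCL effect between times. With 1 array left out the counts ran from 675 to 1283 higher and 408 to 1223 lower for the mean, and from 6 to 71, 28 to 123, 24 to 2647, 20 to 383 and 8 to 2106 at 6, 12, 18, 24 and 48 h. The F-tests then called 0 to 850 and 0 to 884. The cause of these shifts was not tested.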
